A study of Mus musculus with 2 samples.

Results

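The 10 genes described here are known as genes of regulatory T (Treg) cells: *Foxp3*, *Ikzf2*, *Ctla4*, *Tnfrsf18*, *Tnfrsf4*, *Tnfrsf9*, *Lrrc32*, *Izumo1r*, *Nrn1* and *Icos*. They were taken by symbol, and all 10 were found among the 19960 genes listed for the single-cell libraries. The libraries came from the omentum, a fold of peritoneal fat with lymphoid clusters called milky spots. One library was made from wild-type (WT) mice and the other from heterozygous *Postn*-DTR mice, which carry the diphtheria toxin receptor in the first coding exon of *Postn*, a gene expressed in a subset of omental stromal cells. Both groups received diphtheria toxin (DT), which kills cells carrying the receptor, and were examined 5 days later. Each group is 1 library made from the pooled omenta of 3 mice, and no sort, age or sex was given in the sources used here. There was therefore no replicate, no test between groups was possible, and all intervals below are exact 95% intervals that cover counting error only.

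Treg cells are CD4 T cells that restrain immune responses and depend on the transcription factor Foxp3. They carry receptors that respond to co-stimulation and molecules that limit it, and in fat and other tissues they are known to accumulate as a population with a tissue-repair phenotype. Many of the genes used to recognize them are not restricted to them. Activated T cells, innate lymphoid cells (ILCs) and some B cells express the same receptors, so the levels were read across all cell classes.

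The genes are known to have different roles. *Foxp3* (chromosome X, 7573644 to 7595245, plus strand) encodes the lineage-defining factor, and *Ikzf2* (chromosome 1, 69531214 to 69687245, minus strand) encodes the zinc finger protein Helios. *Ctla4* (chromosome 1, 60887000 to 60915832, plus strand) encodes an inhibitory receptor that binds CD80 and CD86, and *Icos* (chromosome 1, 60977927 to 61000320, plus strand) encodes a co-stimulatory receptor of the same family. These genes lie side by side, 62.1 kb apart. *Tnfrsf18* (chromosome 4, 156026164 to 156028895, plus strand; GITR), *Tnfrsf4* (chromosome 4, 156013843 to 156016612, plus strand; OX40) and *Tnfrsf9* (chromosome 4, 150914562 to 150946102, plus strand; CD137) encode co-stimulatory receptors of the TNF receptor family, and the first 2 are 9.55 kb apart. *Lrrc32* (chromosome 7, 98489283 to 98502181, plus strand) encodes GARP, which holds latent TGF-β at the cell surface. *Izumo1r* (chromosome 9, 14885814 to 14903949, minus strand) encodes a folate receptor family protein, and *Nrn1* (chromosome 13, 36725361 to 36735131, minus strand) encodes neuritin. Coordinates are those of the GRCm38 build.

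Upstream sequences are shown for *Ctla4* and *Tnfrsf9*, both of which were higher in *Postn*-DTR γδ T-like cells and in which the stretch lies outside annotated exons. They are the 250 bases before a RefSeq gene start on GRCm38.p6, written 5′ to 3′ on the plus strand. Each lies inside the span of its gene, in an intron of a longer GENCODE transcript. Capitals mark TTTTCC, the reverse complement of GGAAAA, the hexamer searched for as an NFAT core.
Ctla4 chr1:60908775-60909024: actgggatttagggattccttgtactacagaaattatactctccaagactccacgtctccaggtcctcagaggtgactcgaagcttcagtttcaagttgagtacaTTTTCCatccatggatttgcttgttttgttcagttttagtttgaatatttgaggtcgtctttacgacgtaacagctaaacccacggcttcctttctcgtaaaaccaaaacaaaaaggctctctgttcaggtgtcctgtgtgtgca
Tnfrsf9 chr4:150919905-150920154: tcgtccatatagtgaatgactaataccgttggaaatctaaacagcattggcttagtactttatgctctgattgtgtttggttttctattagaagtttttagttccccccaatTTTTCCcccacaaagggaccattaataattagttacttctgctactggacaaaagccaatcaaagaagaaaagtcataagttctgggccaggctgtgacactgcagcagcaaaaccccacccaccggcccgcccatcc
The table of RefSeq promoters held 8 entries for 6 of the 10 genes. The NFAT hexamer was present in 4 of the 8, against 20.4% of all 32851 promoters over the same 250 bases. TTCNNNGAA, the half-sites of a STAT element, was present in 3 of the 8 (all promoters 7.02%), and in 1 *Foxp3* entry it overlapped the NFAT hexamer. A κB-like motif was present in 1 (all promoters 1.41%), the other *Tnfrsf9* entry, and the forkhead letters GTAAACA in 0 (all promoters 3.17%). All motifs were searched on both strands, and these matches are descriptions of letters only.

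After the limits on genes and mitochondrial share, 8654 WT and 5727 *Postn*-DTR cells were kept, with medians of 5635 and 8472 UMIs (unique molecular identifiers, each standing for a captured transcript), and 65 cell barcodes occurred in both libraries. T-like cells, that is clusters named from T cell markers, were 3147 of 8654 (36.4%, 35.4 to 37.4%) in the WT library and 507 of 5727 (8.85%, 8.13 to 9.62%) in the *Postn*-DTR library. Levels are UMIs per 10000 UMIs of a cell, averaged over the cells of a class. For a comparison of libraries the log2 ratio is *Postn*-DTR over WT with 0.02 added to both levels, and in brackets after it stand the ratio from UMIs summed over the cells, with nothing added, which gives deep cells more weight, and its 95% interval. Ranked genes had 20 UMIs or more when both libraries were added, and such a gene passed when its levels differed at least 2-fold.

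Treg-like cells formed 1 cluster of 408 WT and 102 *Postn*-DTR cells, with median depths of 4256.5 and 3317 UMIs. Of the 8 Treg markers listed for naming, 6 were passed, namely *Foxp3*, *Ikzf2*, *Ctla4* and *Tnfrsf18*, which belong to the set, and *Il2ra* and *Ikzf4*. The 10 leading genes of the cluster were *Tnfrsf4*, *Foxp3*, *Lrrc32*, *Izumo1r*, *Tnfrsf9*, *Nrn1*, *Ikzf2*, *Klrg1*, *Areg* and *Tigit*, so 7 of the 10 were members of the set. The cluster thus rests on the genes under study, and the levels that set it apart from other T cells are given as a description. Against the other T-like cells of the same library, 9 of the 10 genes were at least 2-fold higher in the cluster in WT, where 9.58% of 11540 genes passed in either direction, and 9 in *Postn*-DTR, where 16.3% of 8736 did, with *Icos* the exception in both. When the 10 genes were left out of the clustering, 404 of its WT cells (99.0%) and 99 of its *Postn*-DTR cells (97.1%) fell into 1 cluster together with the other CD4 T-like cells, and no cluster was named Treg-like. Of the marker lists of other cells, the 5 B cell genes had a summed level of 0.422 in WT and 0.382 in *Postn*-DTR, the 7 NK cell genes of 0.137 and 0.155, and *Ncr1* and *Klre1* were at 0 in both. The B1 B list summed to 20.3 and 25.1, with a UMI of 7 of 7 genes in WT and 6 in *Postn*-DTR. Most of it came from *Ctla4* and the T cell gene *Cd5*, which are on that list too, and from *Ighm*, the IgM heavy chain, at 4.85 in WT and 7.03 in *Postn*-DTR, while *Bhlhe41* was at 0.00116 and 0. The NKT list (16.8 and 14.7) was mostly *Cd3e* and *Trbc2*, and the LTi list (14.7 and 9.48) mostly *Ltb* and *Cd4*. Of the 7 ILC2 genes, 7 in WT and 5 in *Postn*-DTR had a UMI, with summed levels of 19.3 and 23.2 and *Il5* and *Il13* at 0 in *Postn*-DTR. The largest part of that sum was *Areg*, the epidermal growth factor family ligand amphiregulin, at 13 in WT and 15.8 in *Postn*-DTR (log2 ratio 0.29, summed 0.36, 0.23 to 0.49). What transcripts of these other cells contribute to the cluster was not tested.

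**Figure D1:**
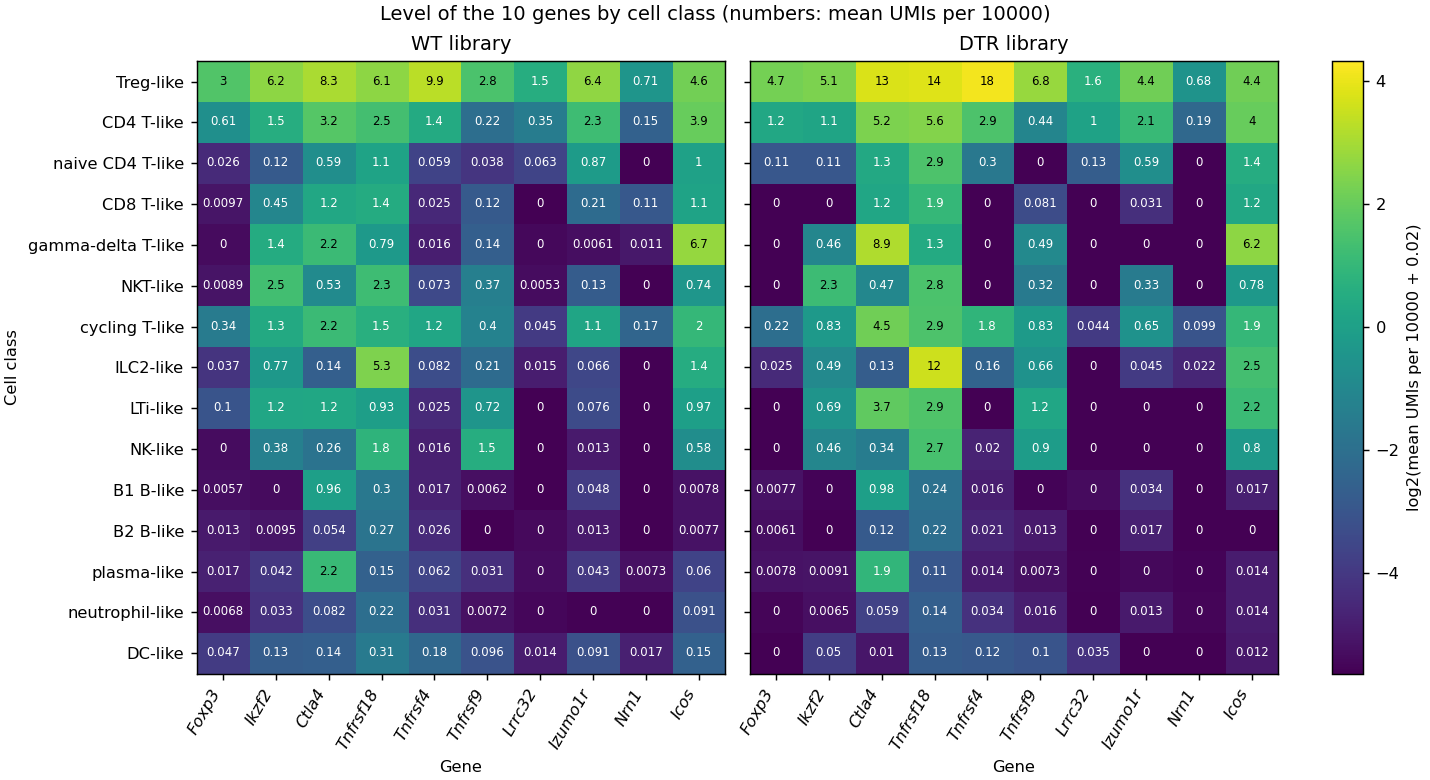
Mean UMIs per 10000 of each of the 10 genes (columns) in 15 cell classes (rows), WT library left and *Postn*-DTR library right, with the color on a log2 scale and the value printed in each cell. Treg-like cells had the highest value of the classes shown for 9 of the 10 genes in both libraries. *Icos* was highest in γδ T-like cells (6.71 and 6.19).

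By level, *Foxp3* was nearly confined to Treg-like and other CD4 T-like cells. Its level in Treg-like cells was 3.04 in WT and 4.65 in *Postn*-DTR, and the next class, the other CD4 T-like cells, stood at 0.612 in WT and 1.24 in *Postn*-DTR. Cycling T-like cells followed at 0.337 in WT and 0.225 in *Postn*-DTR, and the naive CD4 T-like, CD8 T-like, γδ T-like and NKT-like cells were at 0.110 or below in both libraries. A *Foxp3* UMI was found in 43.9% (39.0 to 48.8%) of WT and 48.0% (38.0 to 58.2%) of *Postn*-DTR Treg-like cells, so more than 50% of the cells in this cluster had none. As a measure of free RNA, *Foxp3* UMIs were found in 7 of 1479 (0.473%, 0.190 to 0.973%) WT and 1 of 431 (0.232%, 0.00587 to 1.29%) *Postn*-DTR B2 B-like cells, at median depths of 4382 and 3211 UMIs. The share in the far deeper plasma-like cells was 2.89% and 0.716%, in dendritic cell (DC)-like cells 2.73% and 0%, and in neutrophil-like cells 0.344% and 0.234%. Plasma-like cells held 4.41% of all *Foxp3* UMIs in WT and 14.6% in *Postn*-DTR, and T-like cells 86.1% and 76.2%. The shares in ILC2-like cells of 1.07% (0.130 to 3.81%) and 1.19% (0.144 to 4.23%) rest on 2 cells in each library, their intervals overlapped those of B2 B-like cells, and they were read as background. So were those in B1 B-like cells (0.450% and 0.407%).

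Among T-like cells, those with a *Foxp3* UMI were 265 of 3147 (8.42%, 7.47 to 9.45%) in the WT library and 68 of 507 (13.4%, 10.6 to 16.7%) in the *Postn*-DTR library. After thinning every cell to 1000 UMIs the shares were 125 of 3135 (3.99%, 3.33 to 4.73%) and 48 of 504 (9.52%, 7.11 to 12.4%), so the share was also higher in *Postn*-DTR at matched depth. Thinning left out 12 and 3 shallower cells. By cluster, Treg-like cells made up 408 of 3147 (13%, 11.8 to 14.2%) of WT and 102 of 507 (20.1%, 16.7 to 23.9%) of *Postn*-DTR T-like cells. Within the CD4 classes alone (Treg-like, naive and other CD4 T-like) the Treg-like share was 408 of 1673 (24.4%, 22.3 to 26.5%) and 102 of 254 (40.2%, 34.1 to 46.5%). Against all cells kept the order was the opposite, with 408 of 8654 (4.71%, 4.28 to 5.18%) Treg-like cells in the WT library and 102 of 5727 (1.78%, 1.45 to 2.16%) in *Postn*-DTR. Treg-like cells were thus a larger part of a smaller T cell compartment in the *Postn*-DTR library. These shares compare 2 libraries and carry no error between mice.

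*Ikzf2* was less restricted than *Foxp3*. It was highest in Treg-like cells, at 6.17 in WT and 5.08 in *Postn*-DTR, and second in NKT-like cells, at 2.48 in WT and 2.27 in *Postn*-DTR. In WT the other CD4 T-like (1.47), γδ T-like (1.40), cycling T-like (1.31) and LTi-like cells (1.18) followed, and their counting intervals overlapped. LTi-like cells resemble lymphoid tissue inducer cells, a kind of ILC. B1 and B2 B-like cells were at 0.00948 or below. Treg-like cells held 33.3% of the *Ikzf2* UMIs of the WT library, against 61.4% for *Foxp3*.

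*Ctla4* was highest in Treg-like cells, at 8.31 in WT and 13.5 in *Postn*-DTR, where 77.9% (73.6 to 81.9%) of WT and 89.2% (81.5 to 94.5%) of *Postn*-DTR cells had a UMI. The second class differed between libraries. It was the other CD4 T-like class in WT (3.22, with cycling T-like cells at 2.21 and γδ T-like cells at 2.20) and the γδ T-like class in *Postn*-DTR (8.86, with the other CD4 T-like cells at 5.16). Outside T cells the gene was present in LTi-like cells, at 1.19 in WT and 3.72 in *Postn*-DTR, and in the B lineage. Its level was 2.15 in WT and 1.86 in *Postn*-DTR in plasma-like cells and 0.961 in WT and 0.978 in *Postn*-DTR in B1 B-like cells. In B2 B-like cells it was 0.0538 in WT and 0.122 in *Postn*-DTR. *Icos* was the only gene of the 10 that did not peak in Treg-like cells. In γδ T-like cells it was 6.71 in WT and 6.19 in *Postn*-DTR, in Treg-like cells it was 4.61 in WT and 4.45 in *Postn*-DTR, and in the other CD4 T-like cells it stood at 3.95 in WT and 4.01 in *Postn*-DTR. The counting intervals of the latter pair overlapped in both libraries, whereas that of γδ T-like cells lay above both.

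The TNF receptor genes differed in breadth. *Tnfrsf4* was at 9.87 in WT and 17.8 in *Postn*-DTR in Treg-like cells, and these cells held 64.0% of its UMIs in WT and 63.5% in *Postn*-DTR. Its next classes, other CD4 T-like and cycling T-like cells, were at 1.36 in WT and 2.90 in *Postn*-DTR and 1.17 in WT and 1.80 in *Postn*-DTR. *Tnfrsf18* was nearly as high in ILC2-like cells, at 5.30 in WT and 11.7 in *Postn*-DTR, as in Treg-like cells, at 6.10 in WT and 14.2 in *Postn*-DTR. ILC2-like cells resemble the type 2 ILCs of fat, and the counting intervals of both classes overlapped in each library. A *Tnfrsf18* UMI was found in at least 29.5% of the cells of every T-like, NK-like and ILC class, the lowest share being that of WT γδ T-like cells, and in 82.6% of WT and 92.2% of *Postn*-DTR Treg-like cells. *Tnfrsf9* was at 2.81 in WT and 6.84 in *Postn*-DTR in Treg-like cells. NK-like cells came next in WT and LTi-like cells in *Postn*-DTR, at 1.45 in WT and 0.903 in *Postn*-DTR in the former and 0.720 in WT and 1.17 in *Postn*-DTR in the latter.

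*Lrrc32*, *Izumo1r* and *Nrn1* were mostly found in Treg-like, other CD4 T-like and cycling T-like cells. In *Postn*-DTR, however, cells of unnamed clusters held 43 of the 151 *Lrrc32* UMIs, at a level of 0.116. *Lrrc32* was at 1.47 in WT and 1.57 in *Postn*-DTR in Treg-like and 0.347 in WT and 1.04 in *Postn*-DTR in other CD4 T-like cells, and had 0 UMIs in LTi-like and NK-like cells of both libraries. *Izumo1r* was at 6.41 in WT and 4.40 in *Postn*-DTR in Treg-like, 2.33 in WT and 2.08 in *Postn*-DTR in other CD4 T-like and 0.869 in WT and 0.586 in *Postn*-DTR in naive CD4 T-like cells. *Nrn1* was at 0.713 in WT and 0.676 in *Postn*-DTR in Treg-like cells, of which 14.0% in WT and 14.7% in *Postn*-DTR had a UMI. No *Nrn1* UMI was found in the 440 WT naive CD4 T-like cells. A count of 0 that allows for 3 cells gives a share of cells with a UMI of up to 0.682% (exact interval up to 0.835%), which is no limit on cells that express a gene so rarely captured. Of these 3 genes *Izumo1r* had the broadest presence among naive CD4 T-like cells, with a UMI in 23.6% of the WT cells against 1.14% for *Lrrc32*.

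Within Treg-like cells, 2 of the 10 genes differed at least 2-fold between libraries, both higher in *Postn*-DTR, where 9.22% of the 8395 genes ranked in these cells passed the same limit (283 higher, 491 lower). Both encode TNF receptor family members. *Tnfrsf18* was 6.10 in WT and 14.2 in *Postn*-DTR, and the log2 ratio was 1.22 (summed 1.17, 1.02 to 1.32). *Tnfrsf9* was 2.81 in WT and 6.84 in *Postn*-DTR, and the log2 ratio was 1.28 (summed 1.04, 0.82 to 1.26). The third TNF receptor gene, *Tnfrsf4*, at 0.85 (summed 0.77, 0.64 to 0.90), and *Ctla4*, at 0.70 (summed 0.59, 0.44 to 0.74), stayed under 2-fold with intervals above 0, as did *Foxp3* at 0.61 (summed 0.49, 0.22 to 0.75). *Ikzf2* and *Izumo1r* lay on the other side, at -0.28 (summed -0.43, -0.67 to -0.20) and -0.54 (summed -0.47, -0.70 to -0.25), with intervals below 0. *Icos* (-0.05, summed 0.01, -0.24 to 0.26), *Lrrc32* (0.09, summed 0.28, -0.17 to 0.70) and *Nrn1* (-0.07, summed -0.22, -0.85 to 0.37) had intervals that included 0. The median log2 ratio of the 10 genes was 0.35, against -0.01 over all ranked genes. The cluster was drawn with these genes in both libraries, and what that contributes to the ratios was not tested. Nor was it tested whether the cluster held other CD4 T cells in the same share in both libraries.

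The same 2 genes passed when T-like cells with a *Foxp3* UMI were taken in place of the cluster (265 WT and 68 *Postn*-DTR cells). *Tnfrsf18* (1.22, summed 1.09, 0.91 to 1.27) and *Tnfrsf9* (1.15, summed 0.92, 0.66 to 1.17) passed there, where 13.6% of 7479 genes did. These cells overlap with the Treg-like cells and are no independent measurement. The Treg-like cells of the *Postn*-DTR library were the shallower ones, and after thinning to 1000 UMIs the share of cells with a *Tnfrsf18* UMI was 41.7% (36.8 to 46.6%) in the WT library and 65.7% (55.6 to 74.8%) in the *Postn*-DTR library. For *Tnfrsf9* these shares were 17.9% (14.3 to 22.0%) and 30.4% (21.7 to 40.3%), for *Tnfrsf4* 54.4% (49.4 to 59.3%) and 76.5% (67.0 to 84.3%), for *Ctla4* 42.2% (37.3 to 47.1%) and 67.6% (57.7 to 76.6%), and for *Foxp3* 21.6% (17.7 to 25.9%) and 34.3% (25.2 to 44.4%). The intervals of *Tnfrsf18*, *Tnfrsf4* and *Ctla4* did not overlap between libraries, and those of *Tnfrsf9* and *Foxp3* overlapped narrowly. No cell of either library fell under 1000 UMIs in this cluster. *Ikzf2* (38.2% and 34.3%), *Izumo1r* (39.0% and 34.3%), *Icos* (31.9% and 31.4%), *Lrrc32* (13.7% and 13.7%) and *Nrn1* (6.13% and 7.84%) had overlapping intervals.

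**Figure D2:**
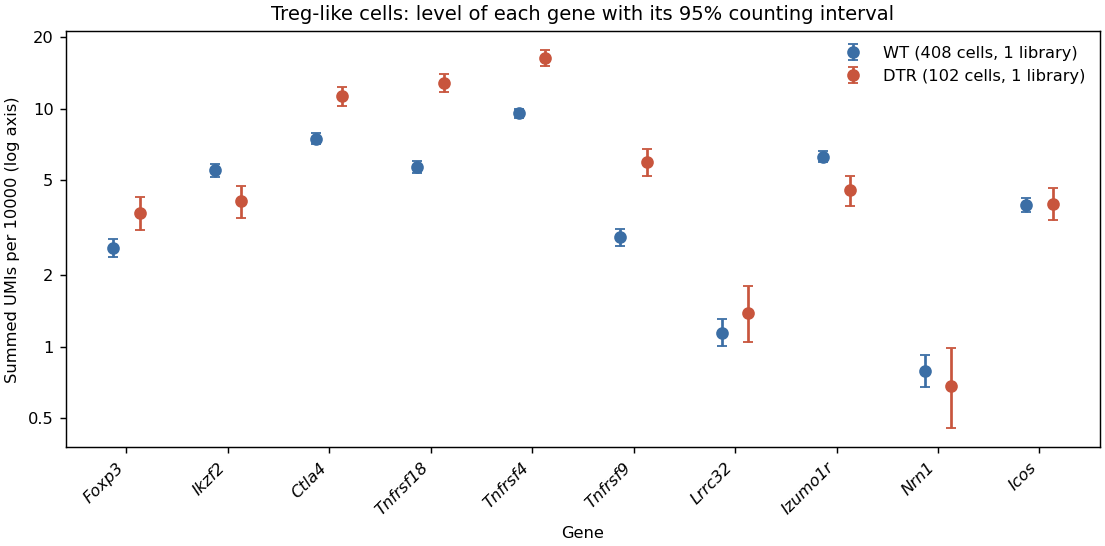
Summed UMIs of each gene per 10000 UMIs of the Treg-like cells (log axis) in the WT and *Postn*-DTR libraries, points with 95% Poisson intervals that cover counting error only. The *Postn*-DTR points of *Tnfrsf18* and *Tnfrsf9* are at least 2 times the WT points, *Ikzf2* and *Izumo1r* are lower in *Postn*-DTR, and *Icos*, *Lrrc32* and *Nrn1* overlap.

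The number of genes of the set seen in 1 cell was counted after thinning to 2000 UMIs. A Treg-like cell had a median of 4 of the 10 genes in WT (393 cells) and 5 in *Postn*-DTR (89 cells), with at least 5 genes in 48.3% and 70.8%. Other CD4 T-like cells had at least 5 genes in 3.97% and 8.49%. No γδ T-like, NKT-like, CD8 T-like, NK-like or LTi-like cell reached 5 genes in either library. Since the cluster was drawn with these genes, this describes how they were distributed and tests nothing.

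**Figure D3:**
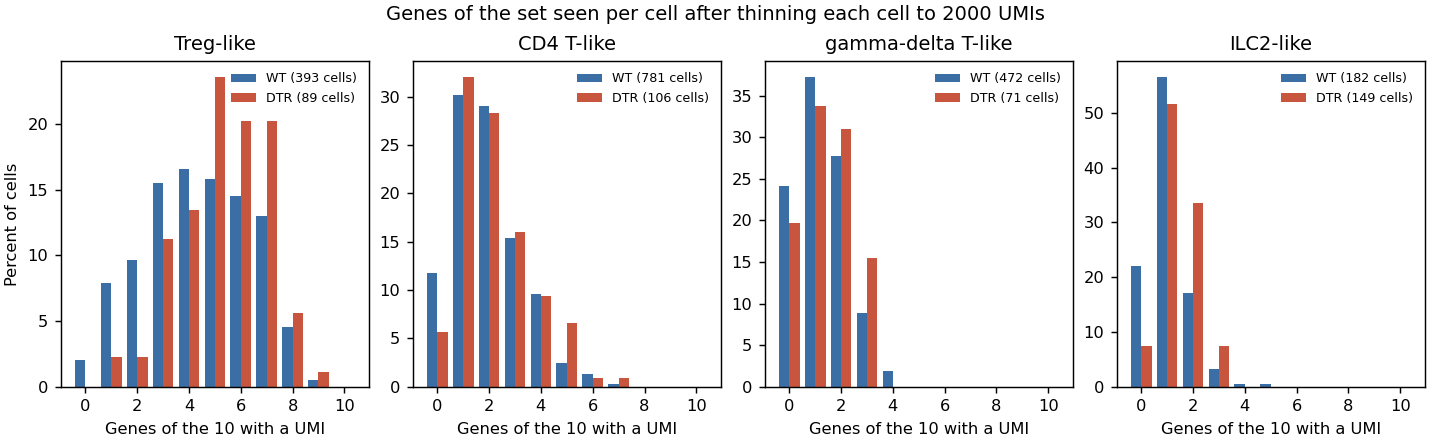
Percent of cells (y axis) by the number of the 10 genes with a UMI (x axis) after each cell was thinned to 2000 UMIs, in 4 cell classes, WT and *Postn*-DTR bars side by side. Treg-like cells center on 4 to 5 genes, while γδ T-like and ILC2-like cells have 0 to 3 in nearly every cell.

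The other 9 genes were then compared between T-like cells with and without a *Foxp3* UMI inside each library, without the split into Treg-like and other T-like cells. Which cells counted as T-like still came from the clusters. In WT, 8 of the 9 were at least 2-fold higher in the 265 cells with *Foxp3*, where 9.94% of 11540 genes passed in either direction. In *Postn*-DTR it was again 8 of the 9, where 20.4% of 8736 genes passed. The log2 ratio was largest for *Lrrc32* (3.48, summed 3.95, 3.63 to 4.27 in WT and 3.07, summed 3.44, 2.82 to 4.07 in *Postn*-DTR), *Tnfrsf9* (3.34, summed 3.32, 3.14 to 3.51 in WT, and 3.01, summed 3.14, 2.83 to 3.45 in *Postn*-DTR) and *Tnfrsf4* (3.30, summed 3.42, 3.31 to 3.53 in WT, and 2.53, summed 2.78, 2.59 to 2.98 in *Postn*-DTR). *Ctla4* was at 2.5 (summed 2.52, 2.43 to 2.62) and 1.6 (summed 1.65, 1.47 to 1.83), *Izumo1r* at 2.42 (summed 2.49, 2.37 to 2.62) and 1.90 (summed 2.23, 1.89 to 2.57), *Ikzf2* at 2.39 (summed 2.46, 2.34 to 2.57) and 2.06 (summed 2.14, 1.83 to 2.44), and *Tnfrsf18* at 1.78 (summed 1.84, 1.72 to 1.95) and 1.93 (summed 1.97, 1.78 to 2.14). *Nrn1* passed with few UMIs in *Postn*-DTR, at 1.44 (summed 1.13, -0.11 to 2.21), an interval that included 0. *Icos* was the exception, at 0.58 (summed 0.47, 0.33 to 0.60) and 0.13 (summed 0.33, 0.00 to 0.64). Cells with a *Foxp3* UMI were the shallower ones (medians of 3646 against 4716 UMIs in WT, and 2900 against 4493 in *Postn*-DTR). They also differed in class. Among the 265 WT cells, 253 belonged to the CD4 classes (Treg-like, naive and other CD4 T-like), which held 1673 of all 3147 WT T-like cells. For *Postn*-DTR, 66 of the 68 cells belonged to these classes, which held 254 of its 507 T-like cells. The ratios therefore do not separate *Foxp3* from CD4 class, and what each contributes was not tested.

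**Figure D4:**
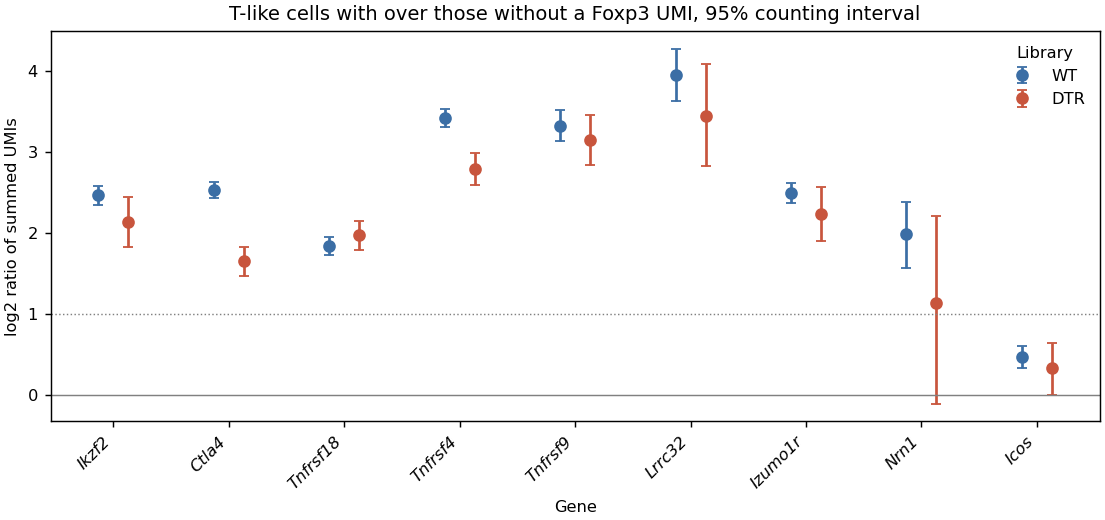
Log2 ratio of summed UMIs per 10000 in T-like cells with over those without a *Foxp3* UMI (y axis) for the other 9 genes (x axis), separately in each library, with 95% counting intervals. All genes but *Icos* lie above the dotted 2-fold line in WT, and *Lrrc32*, *Tnfrsf9* and *Tnfrsf4* lie highest in both libraries.

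The Treg-like cluster did not hold every cell with *Foxp3*. Of the T-like cells with a *Foxp3* UMI, 179 of 265 (67.5%, 61.5 to 73.1%) in the WT library and 49 of 68 (72.1%, 59.9 to 82.3%) in the *Postn*-DTR library were in it, and 86 and 19 cells were in other T-like clusters. In WT these 86 cells had *Ctla4* at 9.04, *Izumo1r* at 5.37, *Lrrc32* at 1.81 and *Ikzf2* at 4.37, against 1.53, 0.789, 0.0626 and 1.17 in the other T-like cells without *Foxp3*. *Tnfrsf9* (0.314 against 0.192), *Nrn1* (0.0543 against 0.0621) and *Icos* (2.95 against 2.87) were under 2-fold there, and *Tnfrsf18* (3.29 against 1.67) just under it. In all, 5 of the other 9 genes passed, where 19.2% of 11312 genes did. These 5 were the 4 named above and *Tnfrsf4*. In *Postn*-DTR only 19 such cells were present, and 6 of the other 8 ranked genes passed, where 46.1% of 8349 genes did, so little can be read from that count. *Lrrc32* went with *Foxp3* most strongly outside the cluster, at a log2 ratio of 4.47 (summed 4.88, 4.30 to 5.46) in the WT library and 4.18 (summed 4.55, 3.5 to 5.59) in the *Postn*-DTR library, against 0.71 (summed 1.04, 0.66 to 1.44) and 1.01 (summed 0.79, -0.01 to 1.62) inside it. *Tnfrsf9* had no such order in both libraries. Outside the cluster it was at 0.65 (summed 1.0, 0.31 to 1.62) in the WT library and 2.72 (summed 2.58, 1.82 to 3.28) in the *Postn*-DTR library, and inside at 1.6 (summed 1.74, 1.48 to 2.01) and 0.86 (summed 1.04, 0.66 to 1.43). The split into inside and outside was itself drawn with these genes, so the levels on each side partly follow from how it was made. The differences between inside and outside were not tested, and the cells compared were unlike. Outside the cluster, 71 of the 86 WT cells with a *Foxp3* UMI were other CD4 T-like cells. That class made up 30.1% of all WT T-like cells outside the cluster. The rest included CD8 T-like, γδ T-like and NKT-like cells, with *Lrrc32* at 0, 0.00307 and 0.00527 in WT. Inside the WT cluster, 2 of the other 9 genes (*Ikzf2* and *Tnfrsf9*) passed 2-fold by *Foxp3*, where 6.21% of 7955 genes did. *Ctla4* (11.5 against 5.81) stayed just under the limit. With summed UMIs it (11.2 against 4.78 per 10000) and *Lrrc32* (1.63 against 0.791) lay above 2-fold too. Inside the *Postn*-DTR cluster *Lrrc32* passed higher and *Nrn1* lower, the latter from only 7 and 21 UMIs, where 11.6% of 3384 genes did.

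With each cell thinned to 2000 UMIs, *Ikzf2* was found among WT Treg-like cells in 72.4% (64.0 to 79.8%) of the cells with a *Foxp3* UMI against 43.6% (37.5 to 49.9%) of those without. *Ctla4* was found in 79.1% (71.2 to 85.6%) of the cells with a *Foxp3* UMI against 52.9% (46.6 to 59.1%) of those without. *Nrn1*, by contrast, was found in 11.2% (6.40 to 17.8%) of the cells with a *Foxp3* UMI against 10.0% (6.66 to 14.4%) of those without, and *Icos* in 48.5% (39.8 to 57.3%) of the cells with a *Foxp3* UMI against 43.2% (37.1 to 49.5%) of those without, with overlapping intervals. *Tnfrsf9* was found in 32.1% (24.3 to 40.7%) of the cells with a *Foxp3* UMI against 22.8% (17.8 to 28.4%) of those without, again with overlapping intervals. The *Postn*-DTR library held 39 and 50 such cells. There *Tnfrsf9* was found in 66.7% (49.8 to 80.9%) of the cells with a *Foxp3* UMI against 32% (19.5 to 46.7%) of those without, and these intervals did not overlap. Those of *Ikzf2* (64.1%, 47.2 to 78.8%, against 38%, 24.7 to 52.8%), *Ctla4* (92.3%, 79.1 to 98.4%, against 78%, 64.0 to 88.5%), *Icos* (46.2%, 30.1 to 62.8%, against 50%, 35.5 to 64.5%) and *Nrn1* (2.56%, 0.0649 to 13.5%, against 16%, 7.17 to 29.1%) overlapped in *Postn*-DTR. In WT the intervals of *Ikzf2* and *Ctla4* did not overlap, nor did those of *Tnfrsf4* (81.3%, 73.7 to 87.5%, against 67.2%, 61.1 to 72.9%). Those of *Tnfrsf18*, *Lrrc32* and *Izumo1r* overlapped in both libraries, as did those of *Tnfrsf4* in *Postn*-DTR.

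Among the T-like cells outside the Treg-like cluster, 3 of the 10 genes were at least 2-fold higher in *Postn*-DTR. Of all 11547 genes ranked there, 3.20% passed in either direction (194 higher, 175 lower). The 3 genes were *Ctla4* (1.76 in WT and 3.86 in *Postn*-DTR, log2 ratio 1.12, summed 1.17, 1.05 to 1.28), *Tnfrsf4* (0.478 in WT and 1.07 in *Postn*-DTR, 1.13, summed 0.98, 0.75 to 1.20) and *Lrrc32* (0.118 in WT and 0.341 in *Postn*-DTR, 1.39, summed 1.11, 0.51 to 1.67). The median log2 ratio of the 10 was 0.91, against 0.02 over all ranked genes. With UMIs summed over the class in place of averaged over cells, and 0.02 again added, 1 gene, *Ctla4*, passed. The makeup of this group differed between libraries, with naive CD4 T-like cells making up 16.1% of it in WT and 5.93% in *Postn*-DTR, so the subsets were also read one by one.

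In other CD4 T-like cells (825 WT and 128 *Postn*-DTR), 3 genes passed, where 9.85% of 9290 genes did. They were *Tnfrsf18* (2.5 in WT and 5.57 in *Postn*-DTR; 1.15, summed 1.13, 0.92 to 1.34), *Tnfrsf4* (1.36 in WT and 2.90 in *Postn*-DTR; 1.08, summed 0.89, 0.57 to 1.20) and *Lrrc32* (0.347 in WT and 1.04 in *Postn*-DTR; 1.53, summed 1.40, 0.75 to 2.01). *Foxp3* itself was 0.612 in WT and 1.24 in *Postn*-DTR in this class (0.99, summed 0.60, -0.02 to 1.19), an interval that reached below 0. Its cells with a *Foxp3* UMI were 8.61% (6.78 to 10.7%) and 12.5% (7.32 to 19.5%). Whether the higher *Tnfrsf4* and *Lrrc32* went with more *Foxp3*-positive cells in this class was not tested. *Icos*, which is also 1 of the markers that named this class, was at 0.02 (summed -0.10, -0.33 to 0.12).

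γδ T-like cells (482 and 73), led by *Scart1*, *Trgv6*, *Trdv4* and *Il17a*, differed most in *Ctla4*. It was 2.20 in WT and 8.86 in *Postn*-DTR, and the log2 ratio was 2.0 (summed 2.11, 1.92 to 2.31), with 547 and 359 UMIs behind it. A *Ctla4* UMI was present in 44.8% (40.3 to 49.4%) of WT and 75.3% (63.9 to 84.7%) of *Postn*-DTR cells, and after thinning to 1000 UMIs in 16.2% (13 to 19.8%) and 53.4% (41.4 to 65.2%). The *Postn*-DTR level thus lay between those of other CD4 T-like and Treg-like cells of that library. *Tnfrsf9* was higher (0.141 in WT and 0.491 in *Postn*-DTR; 1.67, summed 1.72, 0.89 to 2.51) and *Ikzf2* lower (1.40 in WT and 0.458 in *Postn*-DTR; -1.57, summed -1.29, -2.0 to -0.65) in *Postn*-DTR. These 3 of the 5 genes ranked in this class passed 2-fold, where 12.5% of 8869 genes did. *Icos*, which peaked in these cells, was 6.71 in WT and 6.19 in *Postn*-DTR (-0.12, summed -0.20, -0.40 to 0.00). *Foxp3* was found in 0.207% of WT and 0 of the 73 *Postn*-DTR cells, which allows a share of cells with a UMI of up to 4.11% at 3 counts (exact interval up to 4.93%).

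In the remaining T-like classes the *Postn*-DTR library held few cells, and the counts moved with the processing, from 0 to 4 in cycling T-like, 1 to 6 in naive CD4 T-like, 1 to 2 in CD8 T-like, 0 to 2 in the *Cd8a*-led and 0 to 1 in NKT-like cells. In NKT-like cells (528 and 101) 1 of 6 ranked genes passed, *Izumo1r* (0.130 in WT and 0.331 in *Postn*-DTR), where 7.53% of all did, and *Ikzf2*, highest there after Treg-like cells, was 2.48 in WT and 2.27 in *Postn*-DTR (-0.12, summed 0.08, -0.21 to 0.35). In cycling T-like cells (92 and 30) 2 of 9 passed, where 9.02% of all did, namely *Ctla4* (1.01, summed 1.07, 0.82 to 1.31) and *Tnfrsf9* (1.01, summed 0.80, 0.25 to 1.34). In naive CD4 T-like cells (440 and 24) 2 of 4 passed, where 30.1% of all did, namely *Tnfrsf18* (1.07 in WT and 2.90 in *Postn*-DTR; 1.42, summed 1.55, 0.95 to 2.09) and *Ctla4* (0.594 in WT and 1.28 in *Postn*-DTR; 1.08, summed 1.70, 0.81 to 2.49). In CD8 T-like cells (216 and 33) 2 of 5 passed, both lower, where 13.8% of all passed in either direction (213 higher, 720 lower). *Ikzf2* had 65 UMIs in the WT cells and 0 in the 33 *Postn*-DTR cells, which is at least 3.91-fold lower when 3 counts over the class are allowed for. *Izumo1r* had 25 and 1 UMI and an interval of -7.53 to 0.44 on the log2 scale. In the *Cd8a*-led cluster with naive T cell genes (156 and 16) 1 of 3 passed, *Tnfrsf18* (1.02, summed 1.12, 0.32 to 1.86), where 22.7% of all did.

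ILCs shared parts of the set. ILC2-like cells (187 WT and 168 *Postn*-DTR) had *Tnfrsf18* at 5.30 in WT and 11.7 in *Postn*-DTR, and the log2 ratio was 1.14 (summed 1.22, 1.04 to 1.40), and 39.2% (32.2 to 46.7%) and 62.9% (55.1 to 70.2%) of cells had a UMI after thinning to 1000 UMIs. *Tnfrsf9* was 0.205 in WT and 0.657 in *Postn*-DTR (1.59, summed 1.59, 0.77 to 2.46), and both genes passed 2-fold among 5 ranked, where 9.08% of 6575 genes did. *Icos*, known to sustain ILC2s, was 1.43 in WT and 2.55 in *Postn*-DTR (0.83, summed 0.67, 0.31 to 1.03), under 2-fold with an interval above 0. LTi-like cells (55 and 50) had 3 of 5 ranked genes past 2-fold, all higher in *Postn*-DTR. Of all 4010 genes ranked there, 9.15% passed in either direction (204 higher, 163 lower). The 3 genes were *Tnfrsf18* (0.928 in WT and 2.95 in *Postn*-DTR, log2 ratio 1.65, summed 1.47, 0.80 to 2.18), *Ctla4* (1.19 in WT and 3.72 in *Postn*-DTR, 1.63, summed 1.35, 0.79 to 1.93) and *Icos* (0.966 in WT and 2.21 in *Postn*-DTR, 1.18, summed 1.09, 0.41 to 1.79). The UMIs behind these are few (27 and 61 for *Tnfrsf18*). NK-like cells (381 and 145) had 0 of 5 past 2-fold, where 5.50% of 8309 genes were. There *Tnfrsf18* was 1.79 in WT and 2.66 in *Postn*-DTR (0.57, summed 0.53, 0.25 to 0.80), and *Tnfrsf9* was the lower one in *Postn*-DTR, at 1.45 in WT and 0.903 in *Postn*-DTR (-0.67, summed -0.77, -1.20 to -0.36). In NKT-like cells it was at -0.20 (summed -0.25, -1.03 to 0.45), with an interval that included 0.

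**Figure D5:**
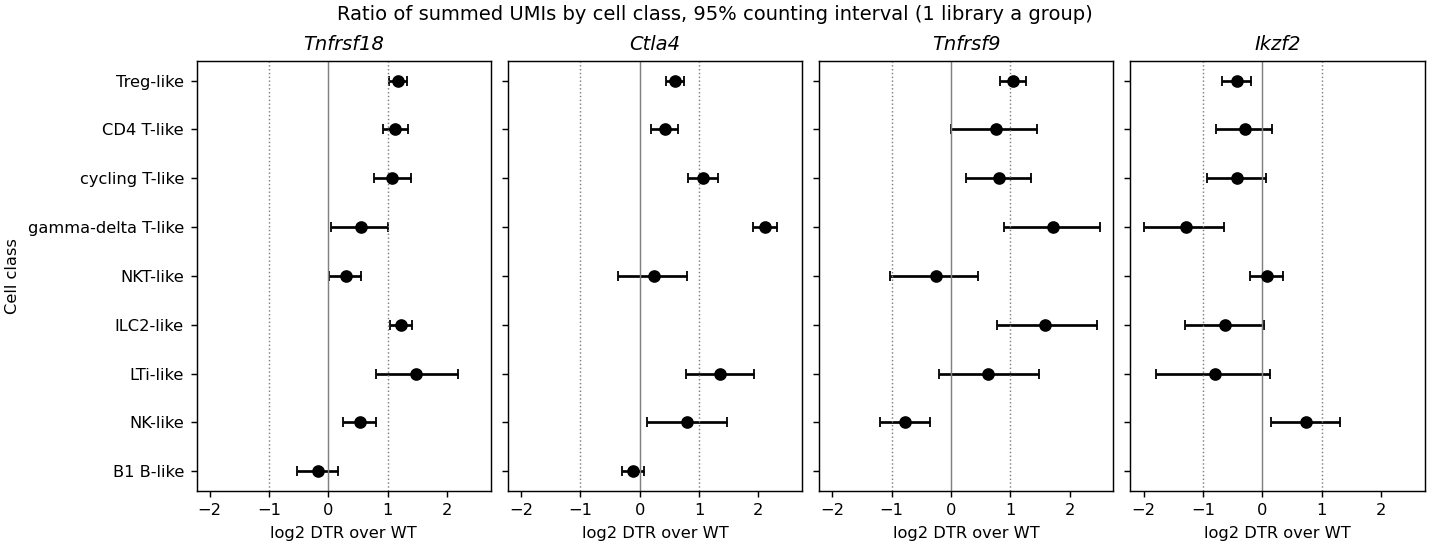
Log2 ratio of summed UMIs, *Postn*-DTR over WT (x axis), of *Tnfrsf18*, *Ctla4*, *Tnfrsf9* and *Ikzf2* in Treg-like, other CD4 T-like, cycling T-like, γδ T-like, NKT-like, ILC2-like, LTi-like, NK-like and B1 B-like cells (y axis), with 95% counting intervals, where a missing point had under 20 UMIs and dotted lines mark 2-fold. *Tnfrsf18* lies right of 0 in every class but B1 B-like, and of the classes drawn *Ctla4* is farthest right and *Ikzf2* farthest left in γδ T-like cells, whereas CD8 T-like cells, with no *Ikzf2* UMI in *Postn*-DTR, are not drawn.

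Compared over classes, *Tnfrsf18* was higher in *Postn*-DTR in all 8 T-like classes and in ILC2-like, LTi-like and NK-like cells, with log2 ratios from 0.30 in NKT-like to 1.65 in LTi-like cells, though the interval in CD8 T-like cells (-0.12 to 0.89) included 0. It was lower in B1 B-like (-0.29, summed -0.18, -0.53 to 0.17) and B2 B-like cells (-0.25, summed -0.24, -0.78 to 0.27), with intervals that included 0. *Icos* differed from it. Its log2 ratio lay between -0.12 and 0.46 in the 8 T-like classes, all with intervals that included 0. *Ikzf2* had an interval below 0 in Treg-like, γδ T-like and CD8 T-like cells and 1 above 0 in NK-like cells (0.26, summed 0.73, 0.14 to 1.30). In NKT-like cells its ratio changed sign between the mean over cells and the summed UMIs.

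B1 B cells, the innate-like B cells of body cavities, are known to express *Ctla4*. B1 B-like cells were named from 7 listed markers of which 3 were passed, *Bhlhe41*, *Zbtb32* and *Plac8*. *Ctla4* was on that list but not among the 3. Its level was 0.961 in WT and 0.978 in *Postn*-DTR, and the log2 ratio was 0.02 (summed -0.11, -0.29 to 0.07), with a UMI in 36.5% (33.6 to 39.4%) of 1110 WT and 31.9% (27.8 to 36.2%) of 492 *Postn*-DTR cells. In B2 B-like cells the share was 2.30% (1.6 to 3.20%) and 2.32% (1.12 to 4.23%). After thinning to 1000 UMIs the shares were 6.86% and 8.74% in B1 B-like and 0.340% and 0.937% in B2 B-like cells, so the difference between the classes was present at matched depth. *Tnfrsf18* in B1 B-like cells, at 0.300 in WT and 0.242 in *Postn*-DTR, was close to that in B2 B-like cells, at 0.268 in WT and 0.222 in *Postn*-DTR. The other 8 genes were at 0.0485 or below. Of 5 ranked genes in B1 B-like cells, 0 passed 2-fold between libraries, where 3.06% of 10513 genes did, and of 3 in B2 B-like cells 0 passed, where 4.11% of 9905 did. *Ctla4* in plasma-like cells was 2.15 in WT and 1.86 in *Postn*-DTR, and 76.7% and 61.7% of these deep cells had a UMI (medians of 29706 and 23854 UMIs). Of all *Ctla4* UMIs, T-like cells held 43.2% in WT and 10.6% in *Postn*-DTR, so most lay outside T cells in both libraries. Treg-like cells held 16.5% and 3.75%. Plasma-like cells, of which there were 622 in WT and 2234 in *Postn*-DTR, held 38.7% and 83.7%.

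The genes whose levels over cell classes were most like that of *Foxp3* were, in order, *Tnfrsf4*, *Lrrc32*, *Nrn1*, *2610204G07Rik* and *Izumo1r*, with Pearson's r of 0.95, 0.90, 0.90, 0.88 and 0.87. This was measured on log2 levels over 40 points (classes of at least 20 cells in each library) and 8395 genes. The points share 2 libraries and most are near 0 for these genes, so r mainly describes which genes are confined to the same classes. The other members came at rank 89 (*Ctla4*, r = 0.61), 105 (*Ikzf2*, r = 0.59), 130 (*Tnfrsf9*, r = 0.56), 134 (*Tnfrsf18*, r = 0.56) and 164 (*Icos*, r = 0.54). The ranked genes were those with at least 20 UMIs in Treg-like cells, and that cluster, drawn with the members, is among the points. The closeness of members to *Foxp3* was therefore largely fixed by how the classes were made and is no result about them.

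Other genes of the Treg program were read in Treg-like cells from 5 lists. Of 9 genes of the interleukin-2 receptor and its signaling, 1 was past 2-fold higher and 1 lower in *Postn*-DTR, with a median log2 ratio of 0.56. *Socs1*, a feedback inhibitor of cytokine signaling, was 1.83 in WT and 3.88 in *Postn*-DTR (log2 ratio 1.07, summed 1.18, 0.89 to 1.46). *Il2*, which Treg cells are known not to make, was 0.617 in WT and 0.0840 in *Postn*-DTR (log2 ratio -2.61, summed -2.80, -4.70 to -1.41), from 138 and 4 UMIs. In WT that level was above the other T-like cells (0.226; log2 ratio 1.37), against what is known of Treg cells, and in *Postn*-DTR below them (0.179; -0.93). Those other T-like cells are a mix of classes, and *Il2* was among the leading genes of the other CD4 T-like cluster. Whether the Treg-like cluster held such CD4 T cells in a different share in each library was not tested. What that would contribute to the ratios between libraries was not tested either. *Il2ra*, the high-affinity receptor chain, was 1.73 in WT and 3.08 in *Postn*-DTR (log2 ratio 0.82, summed 0.87, 0.56 to 1.17), and *Il2rg*, the common chain, 8.54 in WT and 5.75 in *Postn*-DTR (log2 ratio -0.57, summed -0.48, -0.68 to -0.29). Of 14 genes listed as Foxp3-associated regulators, 0 passed in either direction (median 0.08). Among them *Gata3* was 3.36 in WT and 3.76 in *Postn*-DTR (log2 ratio 0.16, summed 0.01, -0.28 to 0.29) and *Ikzf4*, a relative of *Ikzf2*, 0.422 in WT and 0.466 in *Postn*-DTR (log2 ratio 0.14, summed 0.09, -0.76 to 0.86). Over all ranked genes the median was -0.01 and 9.22% passed.

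Of 18 genes of suppression and of the Treg surface, 2 were past 2-fold higher and 1 lower in *Postn*-DTR (median -0.00183). Over all genes ranked in Treg-like cells 9.22% passed (283 higher, 491 lower), which is the share to hold beside this list and the next. Both higher genes encode inhibitory receptors, and with summed UMIs only *Pdcd1* of these 3 genes passed. *Pdcd1* (PD-1) was 2.77 in WT and 6.95 in *Postn*-DTR (log2 ratio 1.32, summed 1.17, 0.95 to 1.39) and *Tigit* 3.22 in WT and 6.78 in *Postn*-DTR (log2 ratio 1.07, summed 0.80, 0.57 to 1.02). *Il10*, an anti-inflammatory cytokine, was 0.566 in WT and 0.207 in *Postn*-DTR (log2 ratio -1.37, summed -0.83, -1.94 to 0.12), an interval that reached above 0. *Klrg1*, at 1.89 in WT and 1.59 in *Postn*-DTR (log2 ratio -0.24, summed 0.00, -0.40 to 0.39), and *Il1rl1*, the interleukin-33 receptor, at 1.18 in WT and 1.62 in *Postn*-DTR (log2 ratio 0.45, summed 0.51, 0.07 to 0.93), stayed under 2-fold. Compared with other T-like cells, Treg-like cells had higher *Areg* (log2 ratio 5.01 in WT and 5.42 in *Postn*-DTR), *Il1rl1* (4.61 and 4.91) and *Ccr8* (3.75 and 4.33), which describe the cluster. Of 7 genes of naive and resting T cells, 1 was past 2-fold higher. *Il7r*, the interleukin-7 receptor, was 3.86 in WT and 11 in *Postn*-DTR (log2 ratio 1.51, summed 1.52, 1.33 to 1.70), whereas *Tcf7* was 2.79 in WT and 1.43 in *Postn*-DTR (log2 ratio -0.95, summed -0.87, -1.26 to -0.50). The median log2 ratio of the 7 was 0.13.

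Partners of the receptors were read over all classes. *Tnfsf9*, the ligand of the *Tnfrsf9* product, was highest in dendritic cell (DC)-like cells of both libraries (2.61 and 3.42). *Icosl*, the ligand of the *Icos* product, was highest in B2 B-like cells (1.15 and 0.922). *Cd80* was highest in DC-like cells (0.384 and 0.332). *Cd86* was highest in cDC1-like cells in WT (1.37) and in monocyte-like cells in *Postn*-DTR (0.673), where the cDC1-like class held under 20 cells. The ligand genes of the *Tnfrsf18* and *Tnfrsf4* products, *Tnfsf18* and *Tnfsf4*, were at 0.101 or below in every class of at least 20 cells. *Nrros*, a partner of latent TGF-β like *Lrrc32*, was highest in monocyte-like cells in WT (4.06) and DC-like cells in *Postn*-DTR (2.89). *Traf1*, an adaptor of TNF receptor family members, was highest in Treg-like cells of both libraries, at 4.62 in WT and 8.32 in *Postn*-DTR (log2 ratio 0.84, summed 0.70, 0.50 to 0.90). Of the 13 partner genes 10 were ranked in Treg-like cells, with a median log2 ratio of -0.29. Of these 0 were past 2-fold higher and 1, *Cd86*, lower, from 28 and 2 UMIs, which is near the 9.22% of all genes ranked in these cells that passed. With summed UMIs *Tnfsf9* passed too (log2 ratio 0.89, summed 1.31), from 28 and 14 UMIs.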

How the data were processed

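Single-cell libraries of mouse omentum were made with the 10x Genomics system. Per the labels, a 5′ kit and Cell Ranger 6.0.0 with the mm10 build were used, whereas the study's methods name a 3′ kit and an earlier Cell Ranger version, and this difference could not be settled. The values deposited by the authors were natural log values, ln(1 + UMIs per 10000 UMIs of the cell), given to 3 decimals. They were returned to whole UMIs by scaling each cell, and 99.96% of WT and 99.91% of *Postn*-DTR values came out within 0.1 of a whole number. The files held natural log values in place of counts, so levels were taken on the linear scale and UMIs only as sums. No columns of samples were left unused.

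Cells with 200 to 7500 genes and at most 25% mitochondrial UMIs were kept. The libraries were merged without batch correction and clustered in Seurat 5.3.0 (SCTransform with sctransform 0.4.2, 3000 variable features less V, D and J receptor segments, 30 components, resolution 0.8). A cluster was named "X-like" when at least 3 of the listed markers, and a set share of them, were at least 2-fold above all other cells. The set shares and the *Cd8a*-led and cycling names were chosen after clusters were seen, and 4 clusters stayed unnamed. Doublets were scored with Scrublet (scanpy 1.11.5). Its automatic threshold called 2 WT doublets, so a score of 0.25, chosen after the data were seen, was used in both libraries (135 WT and 103 *Postn*-DTR cells). A cluster with at least 25% doublets was left unnamed. The cluster left out this way held 85 WT and 4 *Postn*-DTR cells, of which 77.5% were doublets. Doublets in named clusters were kept in the main values.

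Shares carry exact Clopper-Pearson 95% intervals, sums exact Poisson intervals and ratios conditional binomial intervals, all of counting error only (scipy 1.17.1). A count of 0 was taken to allow 3 counts. For shares at matched depth, each cell was thinned to 1000 or 2000 UMIs, leaving out shallower cells. With 1 library a group no p-value was computed. The recovery of UMIs and folds was tested on simulated data.

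The 10 genes and all gene lists were chosen with earlier results of these data known. All 10 genes were described, genes past 2-fold were named from each list of at most 18 genes, and the 5 genes most like *Foxp3* were named. Other list genes (*Il2ra*, *Il2rg*, *Gata3*, *Ikzf4*, *Klrg1*, *Il1rl1*, *Areg*, *Ccr8*, *Tcf7*, *Tnfsf9*) and marker genes (*Ighm*, *Cd5*, *Bhlhe41*) were named after their values were seen. Alternatives covered summed UMIs, other totals, centring, pseudocount, the UMI minimum, the gene minimum, doublets, cluster resolution, clustering without the 10 genes, and leaving out the top cell of a gene.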

Additional observations from a re-analysis of the deposited data

How the results depend on the processing

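The count of 2 genes past 2-fold in Treg-like cells was the same under all 10 alternatives that gave a value. Clustering without the 10 genes gave none, since no cluster was then named Treg-like. The alternatives with a value used cells set apart with genes of the set, by the clusters or by a *Foxp3* UMI. They cannot show whether the count holds in cells chosen without these genes. The counts in B1 B-like (0), LTi-like (3) and NK-like cells (0) and in WT T-like cells by *Foxp3* (8 of 9) were the same under all alternatives run. Those in ILC2-like cells (2 to 3) and *Postn*-DTR T-like cells by *Foxp3* (7 to 8) stayed within 1.5 times. The count of 3 in other T-like cells was 1 with summed UMIs, where *Tnfrsf4* (log2 ratio 0.95) and *Lrrc32* (0.93, with 0.02 added to both levels) were just under 2-fold, and 5 when clustered without the 10 genes, where this group holds the former Treg-like cells.

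The share of T-like cells with *Foxp3* moved with its definition. It was 13% in WT and 20.1% in *Postn*-DTR by the Treg-like cluster, 5.12% and 9.86% with at least 2 UMIs, and 3.99% and 9.52% after thinning to 1000 UMIs, and was higher in *Postn*-DTR each time. In WT Treg-like cells the thinned share was 34.1% at 2000 UMIs against 21.6% at 1000 UMIs. Counts in cycling T-like (0 to 4), naive CD4 T-like (1 to 6), CD8 T-like (1 to 2), *Cd8a*-led (0 to 2), NKT-like (0 to 1) and B2 B-like cells (0 to 1) moved by over 1.5 times, and *Ctla4* and *Tnfrsf9* in cycling T-like cells lay at the limit. No ratio of a gene that passed changed sign. The WT and *Postn*-DTR libraries differed in cell makeup and depth, and no replicate limits what these values say about mice. No paired analysis was possible because each group had 1 library.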
